A study of Mus musculus with 3 samples.

Results

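AMPA and NMDA receptors are the glutamate-gated cation channels of excitatory synapses, and their mRNAs were followed in sorted cortical somatostatin (SST+) neurons from E16.5 to P5. The family is represented by 9 of the 31053 genes in the count matrices. They are the AMPA subunit genes Gria1, Gria2, Gria3, and Gria4 and the NMDA subunit genes Grin1, Grin2a, Grin2b, Grin2d, and Grin3a. All 9 were found in the 3 libraries by symbol, and each symbol named a single row. The NMDA genes Grin2c and Grin3b were close to absent, with at most 2 and 5 UMIs (unique molecular identifiers, each marking 1 captured mRNA molecule) in all kept cells of a library.

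The cells came from the neocortex of SstCre/+;RCEfl/+ mice, in which Cre driven by the Sst gene switches on a GFP reporter, and were sorted as GFP+ DAPI-negative cells for single-cell RNA-seq on the 10x platform. Each stage gave 1 library from pooled tissue, of 6 animals for E16.5 and of 3 each for P1 and P5. GFP marks every cell that has expressed Cre, whether or not it still makes Sst. Animals cannot be told apart within a pool, and stage cannot be told apart from library, from the Percoll step of P1 and P5, from the trypsin and DNase step of P5, or from the Cell Ranger version (3.0.2 at P1 and 3.1.0 at E16.5 and P5). Kynurenic acid and APV, which block these receptors, were in the dissociation buffers of all stages.

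Cells with over 700 genes and under 10% mitochondrial UMIs were kept. The P1 library stood apart here, with 56.3% of its cells kept against 88.3% at E16.5 and 87.5% at P5, and with a median mitochondrial share in kept cells of 5.92% against 4.05% and 4.21%. Among the 9433 kept cells, those with at least 1 UMI of Nos1, the gene for neuronal nitric oxide synthase and a marker of long-range projection (LRP) neurons, were compared with Lhx6 cells without Nos1. Lhx6 is a transcription factor of neurons born in the medial ganglionic eminence, so the second group is mostly interneurons. In the order E16.5, P1, P5, the Nos1 cells numbered 67, 434, and 547, and the Lhx6 cells without Nos1 numbered 3269, 1606, and 1874. UMIs were summed per group and library and divided by the group's total, as CPM (UMIs per 1000000). All intervals are 95% intervals for counting error only. With 1 library per stage no difference between stages or groups could be tested, so that values are given as descriptions.

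An AMPA receptor is a tetramer of Gria subunits, opens fast, and carries most of the resting excitatory current. A single subunit, encoded by Gria2, decides whether the channel lets calcium through. An NMDA receptor needs the obligatory subunit of Grin1 joined with Grin2 or Grin3 subunits. Grin2b and Grin2d are known as early subunits and Grin2a as one that accumulates later. Grin3a lowers calcium entry and weakens the magnesium block. The protein cannot be read from the mRNA, and receptors at the membrane were not measured.

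The libraries held between 13429055 and 25638779 UMIs, and the medians of UMIs per cell were 7863, 3704.5, and 3073 in Nos1 cells and 5808, 3811, and 4752.5 in Lhx6 cells at E16.5, P1, and P5. The libraries shared 10 barcodes. Most markers matched the labels. All 6 markers of inhibitory neurons of the medial ganglionic eminence were detected in both groups of every library, and Sst itself was at 4205 to 5332 CPM in Nos1 cells and at 1425 to 2901 CPM in Lhx6 cells. The 10 LRP markers, Nos1 included, summed to 14121, 29702, and 41315 CPM in Nos1 cells and to at most 1924 CPM in Lhx6 cells. Nos1 and Lhx6 define the groups, so their own part in these marker values was fixed by the gates. The 5 oligodendrocyte markers were at or near 0, with summed levels from 0 to 0.509 CPM. Markers of astrocytes and radial glia reached 13.5 CPM in the Nos1 cells of E16.5 and stayed under 4 CPM elsewhere, and markers of microglia and endothelial cells reached at most 3.55 CPM. An exception to the labels was the list of 7 excitatory neuron markers (Neurod1, Neurod2, Neurod6, Slc17a7, Slc17a6, Tbr1, and Emx1). It summed to 614, 160, and 6.11 CPM in Nos1 cells at E16.5, P1, and P5, against 8.76, 9.61, and 2.92 CPM in Lhx6 cells. All 7 genes were detected in the Nos1 cells of E16.5 and P1. Their carriers were few, with at least 2 such UMIs in 14 of 67, 17 of 434, and 3 of 547 Nos1 cells. Levels of the members in Nos1 cells of E16.5 and P1 are therefore also given without these carriers, and at P5 the largest shift of a member's level was from 463 to 460 CPM (Grin2b).

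Each AMPA gene has a glutamine codon at the same site in the stretch that lines the channel pore. The codon is printed here because the Gria2 results turn on this subunit. It is the Q/R site, a glutamine codon in the genome that is recoded to arginine in Gria2 mRNA by the editing enzyme of Adarb1. The 27 coding bases around it were read from GENCODE M21 transcripts on build GRCm38, each within 1 exon, and the codon is in capitals.
Gria1, chr11:57243082-57243108, plus strand, exon 11: ggggccttcatgCAGcaaggatgtgac
Gria2, chr3:80706899-80706925, minus strand, exon 11: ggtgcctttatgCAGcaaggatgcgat
Gria3, chrX:41610253-41610279, plus strand, exon 11: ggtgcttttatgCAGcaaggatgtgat
Gria4, chr9:4464125-4464151, minus strand, exon 12: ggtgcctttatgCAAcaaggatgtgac
Between 23 and 25 of the 27 bases were identical in each pair of genes. Gria4 carries the other glutamine codon. The libraries hold UMIs per gene, so editing at the site was not measured.

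In Lhx6 cells without Nos1, AMPA mRNA was already abundant at E16.5, was higher at P1, and was lowest at P5. The 4 genes together were at 1656 CPM at E16.5, 2132 CPM at P1, and 1488 CPM at P5. Gria2 was at 722 CPM (710 to 733), 883 CPM (862 to 904), and 539 CPM (524 to 554) at E16.5, P1, and P5, so its level at P5 was 0.746-fold of that at E16.5 (0.723 to 0.771). P1 was thus the high point and P5 the low point, without overlap of the intervals. The part of the lower share of kept cells at P1 in the peaks of that stage was not tested. Gria1, the subunit of calcium-permeable receptors when Gria2 is missing, was at 561, 848, and 641 CPM, which also peaked at P1. Gria3, a minor subunit, was at 119, 175, and 173 CPM, with intervals at P1 and P5 that overlapped. Gria4, known for fast kinetics and for early interneurons, was at 253, 227, and 136 CPM and was the single AMPA gene that was lower at each later stage. Its level at P5 was 0.535-fold of that at E16.5 (0.503 to 0.569).

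The NMDA genes rose in the same cells. Their summed level went from 581 CPM at E16.5 to 1970 CPM at P1 and 2930 CPM at P5. Marker levels of the group differed between stages as well. The 8 Martinotti cell markers, of which all were detected, summed to 1166, 1500, and 1909 CPM. The 6 markers of non-Martinotti interneurons summed to 1821, 3461, and 2202 CPM and were thus highest at P1. Cells with a Reln UMI were 36.6%, 39.6%, and 55.8% of the group. Whether the mix of cells or the marker levels within cells changed was not tested. Nor was their part in the rise tested beyond the split by Reln given later. Grin3a was at 140 CPM (135 to 145), 740 CPM (722 to 760), and 1566 CPM (1540 to 1592), an 11.2-fold difference between E16.5 and P5 (10.8 to 11.7) that was 4.02-fold in cells without Reln. The gene lies at chr4:49661611-49845744 on the minus strand (GRCm38). Grin2d was the lowest member at E16.5, with 12.2 CPM (10.8 to 13.8), and stood at 59.6 CPM (54.3 to 65.1) at P1 and 198 CPM (189 to 207) at P5, a 16.2-fold difference (14.2 to 18.5). Grin2a was at 19.0 CPM (17.2 to 20.9), 113 CPM (106 to 120), and 173 CPM (165 to 182), or 9.13-fold higher at P5 (8.18 to 10.2). These 3 genes increased at both steps without overlap of intervals. Grin1 was at 55.6, 115, and 265 CPM and also increased at both steps. Grin2b behaved differently, with 355 CPM (347 to 363) at E16.5, 942 CPM (921 to 964) at P1, and 728 CPM (711 to 746) at P5, so that its highest level was at P1.

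**Figure D1:**
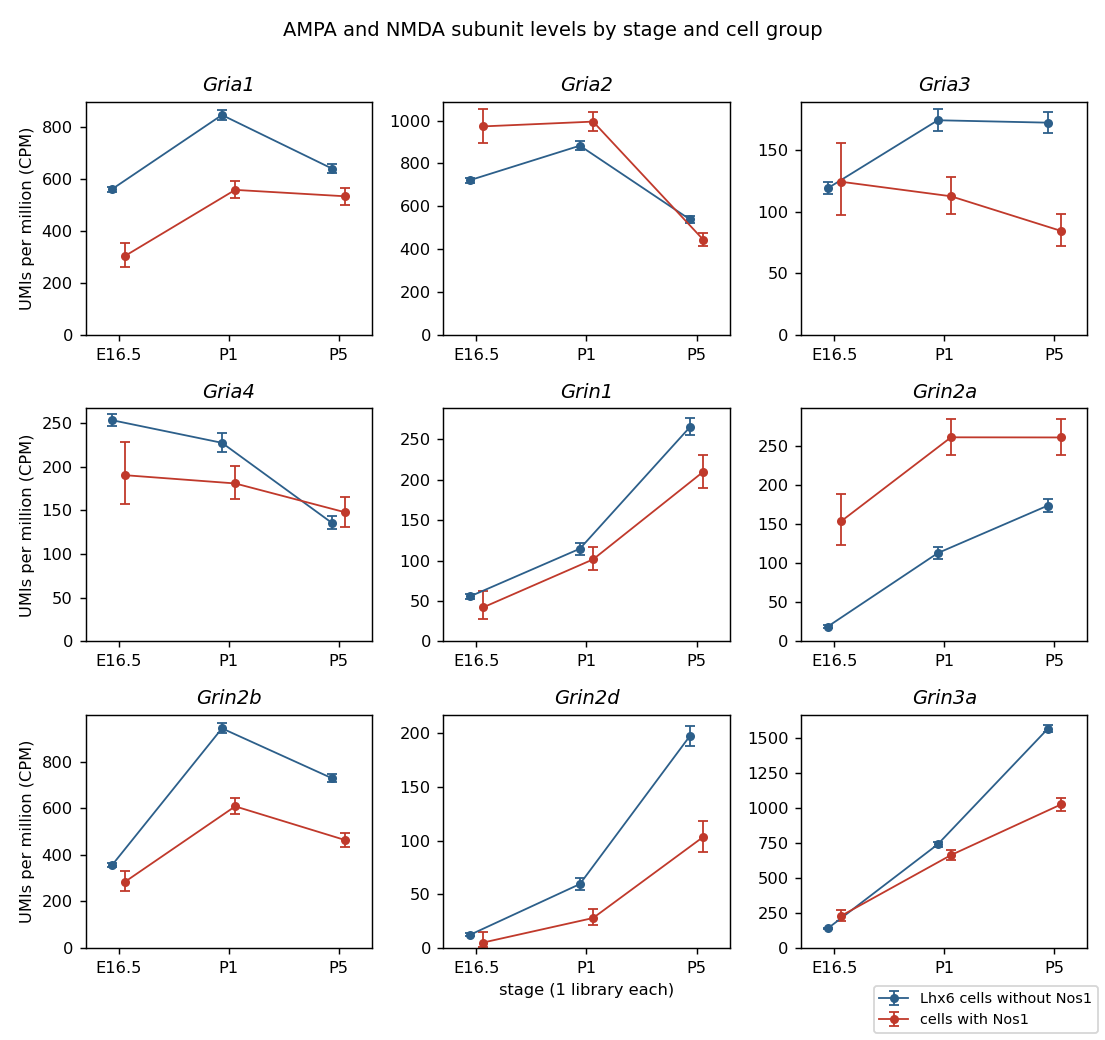
Level of each subunit gene in UMIs per 1000000 (CPM, vertical axes from 0, 1 scale per gene) at E16.5, P1, and P5, in Lhx6 cells without Nos1 (blue) and in cells with Nos1 (red). Points are the sums of 1 library and bars are 95% Poisson intervals of counting. Grin1, Grin2d, and Grin3a climb in both groups, Gria2 falls to 445 and 539 CPM at P5, and Grin2a is the gene whose red points lie above the blue ones at all 3 stages.

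The members past a fold of 2, on the log2 scale with 1 CPM added, were NMDA genes that were higher at the later stage. From E16.5 to P1, 5 of the 9 members were at least 2-fold higher in Lhx6 cells, all 5 of them NMDA genes, where 8.54% of 7165 genes passed the same limit, and 0 members were at least 2-fold lower, against 3.18%. From P1 to P5, the 3 members Grin2d, Grin1, and Grin3a were higher against 7.50% of 7229 genes, and 0 were lower against 8.92%. Scaling by median-of-ratios size factors gave 5.67% higher and 5.87% lower at the first step, where Grin1 was no longer counted and 4 members remained past the limit, and 10.6% and 6.18% at the second. Over the whole interval, from E16.5 to P5, the same 5 were higher against 16.9% of 7064 genes, and 0 were lower against 13.8%. The median log2 ratio of the 5 NMDA genes over this interval was 3.13, that of the 4 AMPA genes -0.12, and that of all genes tested 0.0016. Grin1, Grin2a, Grin2b, and Grin3a are listed in the developmental gene modules that the study derived from these same cells, so their rise is not independent of that choice. Grin1 at P1 lies close to the limit, with a log2 ratio of 1.03. A stricter cell filter (over 1000 genes and under 5% mitochondrial UMIs) left 3 of the 5 at that step, Grin2a, Grin2b, and Grin3a. Grin2d stayed past 2-fold there but did not pass the filter on low values. Grin2b over the whole interval was also close to the limit, with 1.04. It fell below the limit with all deposited cells (0.99), with cells thinned to 2000 UMIs (0.996), and with cells weighted equally (0.95). The stricter filter put Gria4 at least 2-fold lower at P5 than at either earlier stage.

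The composition of the 2 receptor types followed from these levels. In Lhx6 cells, the part of all receptor UMIs that came from AMPA genes was 74.0% at E16.5 and 52.0% at P1, and at P5 it was 33.7%. Within the AMPA genes, Gria2 held 43.6% (43.1 to 44.1), 41.4% (40.7 to 42.1), and 36.2% (35.4 to 37.0), a difference of -7.39 percentage points between P5 and E16.5 (-8.34 to -6.43). Gria1 held 33.9%, 39.8%, and 43.1% and had thereby become the leading AMPA gene of the group as a whole. Gria3 went from 7.20% to 11.6% and Gria4 from 15.3% to 9.11%. The change was uneven within the group. In Lhx6 cells with a Reln UMI, Gria2 went from 42.5% at E16.5 to 39.1% at P5, where its interval overlapped that of Gria1 (39.8%). In those without, Gria2 went from 44.2% to 31.8%, and Gria1 held 48.2% at P5. The shares were read from 3′ UMIs, which count molecules and need no length correction, but capture can differ between genes.

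Among the NMDA genes of the Lhx6 group as a whole, Grin2b gave way to Grin3a. In order of age, Grin2b held 61.0% (60.2 to 61.9), 47.8% (47.1 to 48.6), and 24.9% (24.3 to 25.4) of the NMDA UMIs. Between P5 and E16.5 its share differed by -36.2 points (-37.2 to -35.2) while its level was 2.05-fold higher. Grin3a held 24.0% (23.3 to 24.8), 37.6% (36.8 to 38.4), and 53.4% (52.8 to 54.0). Grin2a stayed a small part with 3.27%, 5.72%, and 5.92%, and Grin2d moved from 2.10% to 3.02% and 6.74%. Grin1 held 9.57%, 5.82%, and 9.05%. Counted against Grin2b alone, Grin2a made up 5.08%, 10.7%, and 19.2% of their joint UMIs. The exchange was uneven within the group. In Lhx6 cells with a Reln UMI, Grin2b held 56.5%, 39.3%, and 20.2% and Grin3a 27.9%, 47.0%, and 60.2%. In those without, Grin2b held 64.3%, 64.6%, and 42.4% and Grin3a 21.2%, 19.1%, and 27.6%, so that Grin2b still led at P5.

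**Figure D2:**
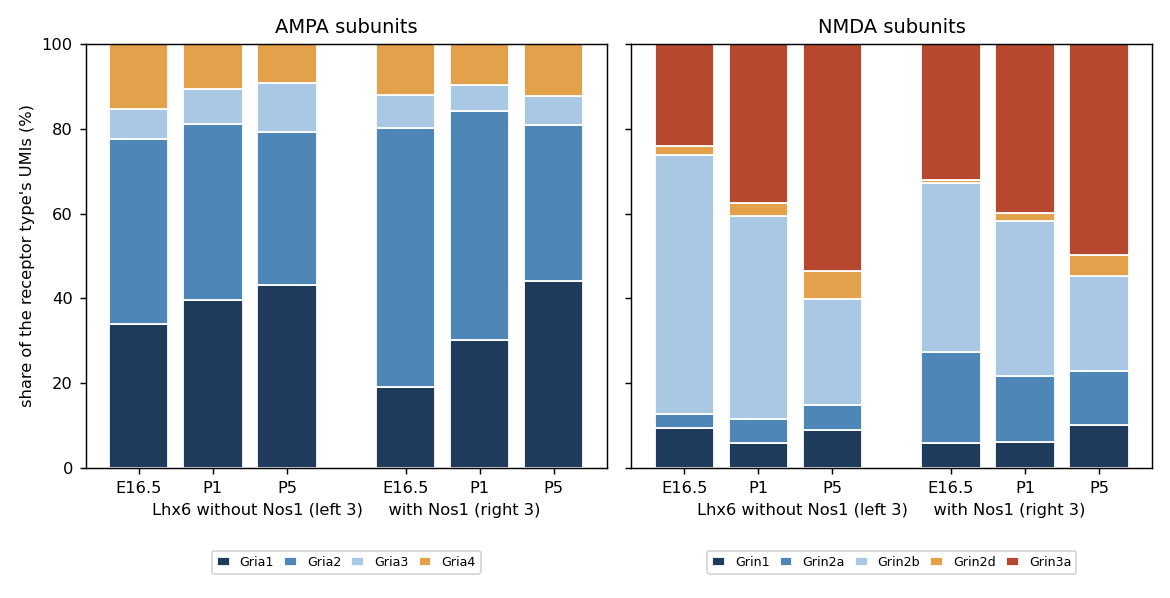
Share of each subunit gene in the UMIs of its receptor type (vertical axis, percent), for AMPA genes on the left and NMDA genes on the right. In each panel the left 3 bars are Lhx6 cells without Nos1 and the right 3 are cells with Nos1, at E16.5, P1, and P5. Grin2b shrinks from 61.0% to 24.9% in Lhx6 cells while Grin3a widens from 24.0% to 53.4%, and the Gria2 share of Nos1 cells narrows from 61.1% to 36.7%.

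Grin2a, the subunit gene of late NMDA receptors, was higher in Nos1 cells than in Lhx6 cells at every stage. Grin2a was at 153 CPM (123 to 188) in Nos1 cells against 19.0 CPM in Lhx6 cells at E16.5, at 260 CPM (238 to 284) against 113 CPM at P1, and at 260 CPM (238 to 284) against 173 CPM at P5. Grin2a lies at chr16:9567898-9995560 on the minus strand. The intervals did not overlap at any stage. The ratios were 8.07 (6.35 to 10.2), 2.31 (2.07 to 2.58), and 1.502 (1.36 to 1.66), so that the distance shrank as Grin2a increased in Lhx6 cells. Leaving out carriers of excitatory markers, Nos1 cells were at 220, 273, and 260 CPM. In the joint UMIs of Grin2a and Grin2b, Grin2a already held 35.0% of Nos1 cells at E16.5 (29.2 to 41.1), then 30.0% and 36.0%. The study listed Grin2a as enriched in LRP neurons from these same cells, so that this difference is not independent evidence.

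The other NMDA genes were mostly lower in Nos1 cells. Grin2d was at 5.05 CPM, from 3 UMIs, at E16.5, a ratio of 0.414 with an interval from 0.0848 to 1.22, and at 27.9 CPM against 59.6 CPM at P1 and 103 CPM against 198 CPM at P5, ratios of 0.469 (0.348 to 0.621) and 0.523 (0.451 to 0.605). Grin2b was at 284, 608, and 463 CPM in Nos1 cells against 355, 942, and 728 CPM in Lhx6 cells, with ratios of 0.802, 0.645, and 0.636. Grin1 was at 42.1, 102, and 210 CPM against 55.6, 115, and 265 CPM, and its intervals overlapped between the groups at E16.5 and P1. Grin3a changed sides, with 229 CPM against 140 CPM at E16.5, 664 CPM against 740 CPM at P1, and 1025 CPM against 1566 CPM at P5. Its ratios of 1.64 (1.37 to 1.95), 0.896 (0.843 to 0.952), and 0.655 (0.625 to 0.686) did not overlap. This held against the Lhx6 group as a whole. Lhx6 cells without a Reln UMI were below Nos1 cells in Grin3a at every stage, at 120, 280, and 484 CPM. Those with a Reln UMI, at 167, 1123, and 2144 CPM, were below Nos1 cells at E16.5 and above them at P1 and P5. Without the carriers of excitatory markers, Nos1 cells of E16.5 were at 58.6 CPM (37.5 to 87.1) for Grin1, 298 CPM (247 to 355) for Grin2b, 7.32 CPM (1.51 to 21.4) for Grin2d, and 332 CPM (278 to 393) for Grin3a, and the Grin2b interval then overlapped that of Lhx6 cells. At P1 they were at 101, 567, 25.5, and 702 CPM, and the Grin3a interval overlapped. For Grin3a at P1 the direction turned with the stricter cell filter (log2 ratio 0.34), with cells thinned to 2000 UMIs (0.24), and with cells weighted equally (0.19).

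Among the AMPA genes, Gria1 was lower in Nos1 cells at all stages, with 305 CPM against 561 CPM at E16.5, 559 CPM against 848 CPM at P1, and 534 CPM against 641 CPM at P5. Gria2 was at 973, 995, and 445 CPM in Nos1 cells against 722, 883, and 539 CPM, and thus higher at E16.5 and P1 and lower at P5. Gria3 was at 125, 113, and 84.6 CPM against 119, 175, and 173 CPM. The ratio of Gria3 was 1.04 (0.817 to 1.32) at E16.5 and 0.490 (0.415 to 0.575) at P5. Gria4 was at 190, 181, and 148 CPM against 253, 227, and 136 CPM, and its intervals overlapped only at P5. Without the carriers of excitatory markers, the 4 AMPA genes of Nos1 cells at E16.5 were at 410 CPM (350 to 477) for Gria1, 835 CPM (749 to 928) for Gria2, 171 CPM (133 to 216) for Gria3, and 259 CPM (212 to 313) for Gria4. Gria1 then remained below and Gria2 above the Lhx6 interval, Gria3 was above it, and the lower level of Gria4 was lost. At P1 the same genes were at 584, 955, 112, and 186 CPM. Stricter Nos1 gates, which left fewer cells, moved AMPA genes at E16.5 to at least 2-fold lower in Nos1 cells. With at least 2 Nos1 UMIs these were Gria1 and Gria3, and with at least 3 they were Gria1, Gria3, and Gria4.

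**Figure D3:**
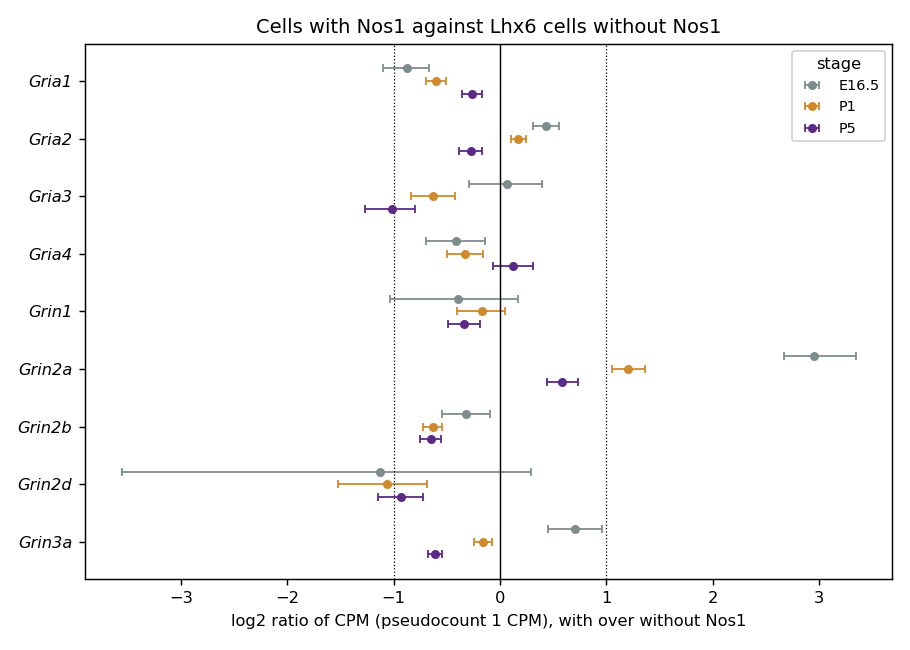
Log2 ratio of CPM (horizontal axis, 1 CPM added, positive values higher in cells with Nos1) for each subunit gene at E16.5 (grey), P1 (orange), and P5 (purple). Bars are 95% counting intervals of the ratio and dotted lines mark a 2-fold difference. Grin2a lies right of 0 at all 3 stages, at 2.95, 1.20, and 0.58, and Grin3a goes from 0.71 to -0.61.

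By the 2-fold limit, few members separated the groups. At E16.5, 1 member (Grin2a) was higher in Nos1 cells, against 3.18% of 6880 genes, and 0 were lower, against 1.47%. Grin2d did not pass the filter on low values there, so that 8 members were counted. At P1, Grin2a was higher, against 2.29% of 7372 genes, and Grin2d was lower, against 1.40%. At P5, 0 members were higher, against 2.64% of 6844 genes, and Gria3 was lower, against 3.33%. Without the carriers of excitatory markers, Grin3a joined Grin2a at E16.5, and its level in Nos1 cells was 332 CPM. Gria3 at P5 and Grin2d at P1 were near the limit, with log2 ratios of -1.02 and -1.07, and neither passed it when Nos1 cells also had to carry an Lhx6 UMI.

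Within Nos1 cells, the stages differed in much the same genes. Grin3a was at 229 CPM (192 to 271), 664 CPM (628 to 701), and 1025 CPM (981 to 1071), and Grin1 at 42.1 CPM (27.2 to 62.1), 102 CPM (88.0 to 117), and 210 CPM (190 to 231). Grin2a was level between P1 and P5, with a ratio of 0.999 (0.882 to 1.13). Gria2 was level between E16.5 and P1 and was 0.447-fold at P5 (0.412 to 0.484). These values include the carriers of excitatory markers, without which Gria2, as given above, was lower at E16.5 than at P1. From P1 to P5, 2 members (Grin2d and Grin1) were at least 2-fold higher, against 5.99% of 7194 genes, and 1 (Gria2) was at least 2-fold lower, against 9.99%. Median-of-ratios size factors gave 9.85% higher and 6.22% lower and put Gria2 just under the limit, and a gate of at least 2 Nos1 UMIs did the same for Grin1.

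The Gria2 share of Nos1 cells went from 61.1% of AMPA UMIs (57.9 to 64.2) at E16.5 to 53.9% (52.2 to 55.5) at P1 and then to 36.7% (34.8 to 38.7) at P5. It exceeded that of Lhx6 cells by 17.5 points (14.3 to 20.6) at E16.5 and 12.5 points (10.7 to 14.2) at P1. At P5 the difference was 0.511 points, with an interval from -1.57 to 2.62. Without the carriers of excitatory markers the 3 shares were 49.9% (46.0 to 53.7), 52.0%, and 36.6%, so that the embryonic value moved with these markers. Grin2b held 39.9%, 36.6%, and 22.5% of the NMDA UMIs in Nos1 cells, and Grin3a 32.1%, 39.9%, and 49.7%. At P5 the Grin2b share of Nos1 cells minus that of Lhx6 cells was -2.40 points (-3.76 to -0.991), and -9.94 points with cells weighted equally.

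Cells with at least 5 UMIs over the excitatory list and without Lhx6 numbered 37, 27, and 17. Of these, 13, 10, and 0 had a Nos1 UMI and were thus also in the Nos1 group. Gria2 was higher in them than in Lhx6 cells, at 1031, 1460, and 940 CPM, and Gria1 was lower, at 73.8, 102, and 127 CPM. Grin2b was at 354, 1217, and 1334 CPM. Grin3a was at 37.9, 63.3, and 102 CPM, which is a ratio to Lhx6 cells of 0.272 (0.161 to 0.430), 0.0855 (0.0455 to 0.146), and 0.0649 (0.0280 to 0.128). The part of free RNA from the suspension in these low levels was not tested.

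Grin3a was uneven among Lhx6 cells. They were divided by Reln, the gene of the secreted protein reelin and a Martinotti cell marker, into cells with at least 1 Reln UMI (1196, 636, and 1046 cells) and cells without. Grin3a was at 167, 1123, and 2144 CPM with Reln and at 120, 280, and 484 CPM without, ratios of 1.39 (1.29 to 1.49), 4.02 (3.75 to 4.30), and 4.43 (4.20 to 4.67). Grin2a was higher with Reln at all stages, at 26.0, 137, and 213 CPM against 14.1, 83.2, and 99.9 CPM. Gria4 was lower, at 198, 181, and 110 CPM against 291, 283, and 183 CPM. Gria1 was near equal at E16.5 (574 and 553 CPM) and lower with Reln at P5 (550 and 812 CPM). Grin1 and Grin2b were close in both, with 273 against 252 CPM and 721 against 743 CPM at P5.

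The share of NMDA UMIs held by Grin3a was 60.2% (59.6 to 60.9) with Reln and 27.6% (26.4 to 28.8) without at P5, and Grin2b was the leading NMDA gene without Reln at every stage, with 64.3%, 64.6%, and 42.4%. Grin3a nevertheless increased in cells without Reln, where its P5 level was 4.02-fold of that at E16.5 (3.74 to 4.31). The cells with Reln had more UMIs, with medians of 6622, 5681.5, and 5548 against 5411, 3165.5, and 3543.5, and a deeper cell is more likely to show a Reln UMI. The study named Grin3a among genes enriched in Martinotti cells from these cells, so that the split is a description.

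**Figure D4:**
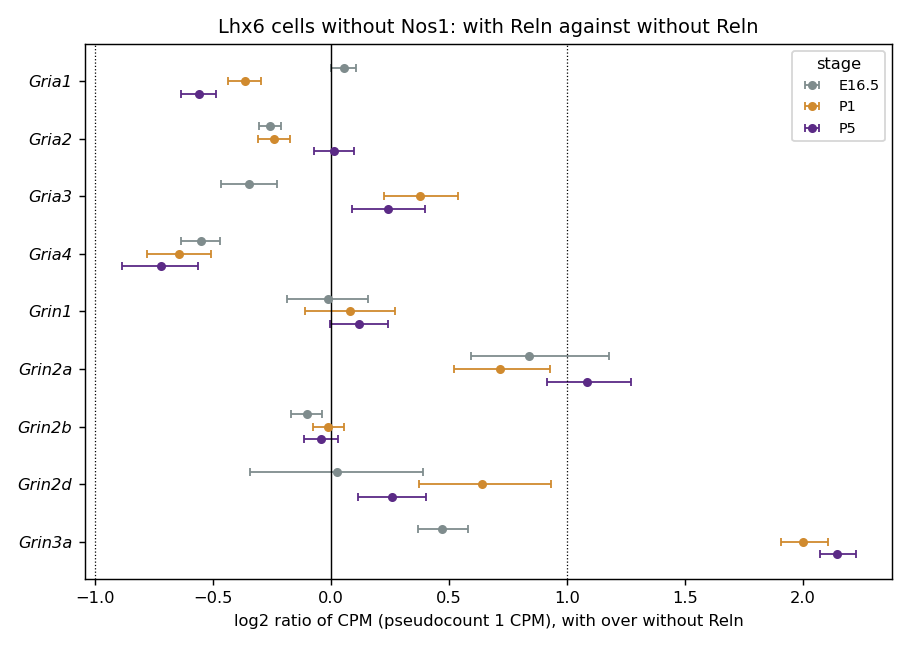
Log2 ratio of CPM (horizontal axis, 1 CPM added, positive values higher in cells with Reln) for each subunit gene among Lhx6 cells without Nos1, at E16.5 (grey), P1 (orange), and P5 (purple), with 95% counting intervals and dotted lines at 2-fold. Grin3a moves from 0.47 at E16.5 to 2.00 and 2.14, and Gria4 lies left of 0 at all 3 stages.

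The order of the members turned over with age. In Lhx6 cells it was led by Gria2, Gria1, and Grin2b at E16.5, by Grin2b, Gria2, and Gria1 at P1, and by Grin3a, Grin2b, and Gria1 at P5. Of the neighbours in these orders, Gria2 and Gria1 at P1, Grin1 and Grin2a at P1, and Grin2a and Gria3 at P5 had overlapping intervals, and all other neighbours did not. In Nos1 cells, Gria2 led at E16.5 and P1 and Grin3a at P5. At E16.5, the Nos1 values from Gria1 (305 CPM) through Grin2b, Grin3a, Gria4, and Grin2a to Gria3 (125 CPM) overlapped from each gene to the next.

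Genes that act with these receptors were read from 4 lists of 48 genes in all, comprising AMPA auxiliary subunits, postsynaptic scaffolds, signalling and modifying enzymes, and extracellular organizers. From E16.5 to P5 in Lhx6 cells, 5 of 11 auxiliary genes above the filter were at least 2-fold higher and 0 lower, where 16.9% of all genes tested were higher and 13.8% lower. Shisa6, which slows AMPA receptor desensitization, was at 16.6 and 161 CPM, Cnih3, an auxiliary subunit that aids export to the membrane, at 7.07 and 44.3 CPM, and Shisa9 at 10.0 and 44.4 CPM. Of 15 scaffold genes, 5 were higher and 0 lower, led by Dlg2, a scaffold that binds NMDA receptors, at 45.5 and 178 CPM. Of 10 enzyme genes, 5 were higher and 0 lower, with the kinase gene Camk2a at 7.49 and 44.0 CPM. The Adarb1 gene, whose enzyme edits the codon printed above, was at 20.7, 46.1, and 96.6 CPM in Lhx6 cells and at 26.9, 40.6, and 50.9 CPM in Nos1 cells. Of 4 organizer genes, 2 were higher, with Nptxr, a receptor-like pentraxin, at 24.4 and 207 CPM, and Olfm2 was lower, at 199 and 87.8 CPM. The medians of the 4 lists, taken over all their genes and not only those above the filter, were 0.83, 0.48, 1.01, and 0.98 on the log2 scale. The median of all genes tested, which were all above the filter, was 0.0016.

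Between the cell groups, few partner genes passed 2-fold. Cnih3 was higher in Nos1 cells at P1 (68.0 against 23.5 CPM) and P5 (159 against 44.3 CPM). Grip1, a scaffold of the Gria2 and Gria3 proteins, was lower at both, with 102 against 206 CPM at P1 and 75.9 against 170 CPM at P5. At P1, Camk2a (35.0 against 13.98 CPM) and Olfm3 (87.3 against 41.0 CPM) were also higher. These were 3 higher and 1 lower of 42 genes above the filter, against 2.29% and 1.40% of all genes. At P5, 1 of 41 was higher and 1 lower, against 2.64% and 3.33%. At E16.5, 1 of 29 was higher (Camk2b, 101 against 49.7 CPM) and 1 lower (Cacng3, 28.6 against 79.6 CPM), against 3.18% and 1.47%. Camk2a stood the other way at P5, at 30.6 CPM in Nos1 cells against 44.0 CPM in Lhx6 cells. Partner genes were not read without the carriers of excitatory markers, and the part of these carriers in the differences was not tested.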

How the data were processed

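The authors deposited 1 matrix of UMI counts per gene and cell for each stage, made with Cell Ranger and mouse genome build GRCm38, with versions 3.1.0 (E16.5, P5) and 3.0.2 (P1) per the labels. Raw counts were used as deposited, and no test was possible with 1 library per stage. Cells with over 700 genes and under 10% UMIs from mitochondrial genes were kept, doublets were not called, and UMIs were summed per group and library as CPM. Ratios of all genes used log2 with 1 CPM added, for genes with a mean of at least 20 CPM and at least 10 UMIs over both groups. Levels have exact Poisson intervals, printed folds the exact conditional interval without the added CPM, shares Clopper-Pearson intervals, and differences of shares Newcombe intervals, all at 95%. The members, the partner and marker lists, and the comparisons were chosen with earlier results of these data known, and the split by Reln after its values were seen. All members are named, and of each partner list up to 3 genes past 2-fold in each direction, plus Adarb1, named after its values were seen, and 1 gene that this rule names is not reported here. Pick1 was left out because 2 rows carry its symbol. Another 19 settings were tried, and 1 more (cells with shared barcodes left out) was added after seeing the data. Scripts used Python 3.11.15, numpy 2.4.6, scipy 1.17.1, pandas 2.3.3, and matplotlib 3.10.9 and were tested on simulated data. Window and gene coordinates came from GENCODE M21 on GRCm38.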

Additional observations from a re-analysis of the deposited data

Results flagged for a closer look

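Gria3 differed between E16.5 and P5 in opposite directions in the 2 cell groups as gated. Its log2 ratio of P5 over E16.5 was -0.55 in Nos1 cells (125 and 84.6 CPM) and 0.53 in Lhx6 cells without Nos1 (119 and 173 CPM), and neither counting interval held 0. The difference was not tested, since each group had 1 library per stage. Without the carriers of excitatory markers, Gria3 in Nos1 cells was at 171 CPM at E16.5 and 84.4 CPM at P5. The direction in Nos1 cells depended on the gate: with at least 2 Nos1 UMIs it was at 55.4 CPM (31.0 to 91.4, 15 UMIs in 29 cells) and 72.1 CPM (59.7 to 86.3), and with at least 3 at 39.0 CPM (15.7 to 80.4, 7 UMIs in 16 cells) and 74.5 CPM (61.7 to 89.3), so that P5 was the higher stage with overlapping intervals.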

How the results depend on the processing

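No paired analysis was possible because the stages are different conditions and each had 1 library, so that Nos1 and Lhx6 cells formed 1 pair per stage, and there was no replicate to leave out. Of the counts of members past 2-fold, 228 values under other settings stayed within 1.5 times and 38 did not. The former include settings that could not change a count. Stricter Nos1 gates leave the stage counts of Lhx6 cells as they were, and other Lhx6 gates leave those of Nos1 cells. With over 1000 genes and under 5% mitochondrial UMIs, 3 members (not 5) were higher at P1 than at E16.5 in Lhx6 cells, 1 was lower from P1 to P5 and 1 from E16.5 to P5 (0 before), and Nos1 cells had 2 higher and 1 lower at E16.5, 0 lower at P1, and 0 lower at P5. With all deposited cells, 1 member (not 3) was higher from P1 to P5 in Lhx6 cells and 1 (not 2) in Nos1 cells. The latter count was also 1 with at least 2 or 3 Nos1 UMIs, per-cell means, and 10 CPM added, and with size factors 0 members were lower there. At E16.5, 2 members were higher in Nos1 cells with at least 2 or 3 Nos1 UMIs, a required Lhx6 UMI, excitatory carriers left out, cells thinned to 2000 UMIs, and per-cell means. There, 2 and 3 were lower with at least 2 and 3 Nos1 UMIs, and 1 with a 5 CPM minimum or no minimum. At P1, 2 were lower with at least 2 or 3 Nos1 UMIs, and 0 with a required Lhx6 UMI, thinning, 10 CPM added, or a 50 CPM minimum. At P5, 2 were lower with at least 2 or 3 Nos1 UMIs, thinning, and per-cell means, and 0 with a required Lhx6 UMI, at least 2 Lhx6 UMIs in the Lhx6 cells, size factors, and 10 CPM added. The log2 ratio of Grin2d between Nos1 and Lhx6 cells at E16.5, from 3 UMIs, turned from -1.13 to 0.43 with thinning. The Gria2 share difference between P5 and E16.5 was -5.05 points with the stricter filter, -5.99 with at least 2 Lhx6 UMIs, and -8.84 with thinning. That of Grin2b was -38.9, -40.1, and -37.3 with the stricter filter, thinning, and cells weighted equally. At P5, the Gria2 difference between Nos1 and Lhx6 cells was -1.58 with the stricter filter, 2.87 and 2.93 with at least 2 and 3 Nos1 UMIs, and 2.84 with cells weighted equally, and that of Grin2b was -9.94 with cells weighted equally. The cause was not tested. Grin2a kept its sign between the groups under all 16 settings that bear on a ratio, with log2 ratios from 2.49 to 3.50 at E16.5, 1.05 to 1.46 at P1, and 0.53 to 0.75 at P5. The median log2 ratio of all genes from E16.5 to P1 in Lhx6 cells was 0.13, and -0.04 with size factors. From P1 to P5 it was -0.10 and 0.06 in Lhx6 cells and -0.14 and 0.05 in Nos1 cells. The Nos1 group of E16.5 held 67 cells and 594151 UMIs in all, and Grin1 rested on 25 UMIs there.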
